A study of Mus musculus with 2 samples.

Results

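Mir378a and Mir33 are microRNA (miRNA) genes that lie inside introns of genes for metabolic regulators, and their levels were measured in the mouse adrenal gland. The members were the rows of the deposited tables whose identifiers are Mir378a (ENSMUSG00000105200.1) or Mir33 (ENSMUSG00000065465.1) in the GENCODE M21 annotation, 2 genes of 2202. Adrenal gland tissue of male B6CASTF1/J mice aged 2 months was used, with 1 small RNA library from animal 3 (replicate 1) and 1 from animal 4 (replicate 2). B6CASTF1/J mice are first-generation hybrids of C57BL/6 and the wild-derived castaneus strain, and the labels name no treatment, other genotype or other tissue. There was thus 1 group of 2 biological replicates, and the questions open to it are how high each gene was, in which order, and how far the animals differed.

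MiRNAs are cut from a hairpin in a longer primary transcript and, once bound by Argonaute, repress mRNAs that pair with their seed, bases 2 to 8 of the mature strand. A miRNA in an intron can be made from the transcript of its host gene. Srebf2, the host of Mir33, encodes SREBP-2, which switches on cholesterol synthesis and uptake, and miR-33 represses the cholesterol exporter Abca1. Ppargc1b, the host of Mir378a, encodes PGC-1β, a coactivator of mitochondrial and fatty acid oxidation genes, and miR-378 is known to repress regulators of energy use such as Crat and Med13. The adrenal cortex stores cholesterol and turns it into steroid hormones in steps that take place partly in mitochondria. Host mRNAs were not measured here.

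The sequences of Mir33 are shown because its counts depend on how far they can be told from those of other genes (RefSeq, GRCm38.p6, plus strand, 5′ to 3′). The hairpin is at chr15:82198122-82198190, and capitals mark its mature arms. In the arms, capitals mark the seed.
Mir33 hairpin: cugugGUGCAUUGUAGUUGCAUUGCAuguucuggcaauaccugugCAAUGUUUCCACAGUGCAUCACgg
miR-33-5p: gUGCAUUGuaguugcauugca
miR-33-3p: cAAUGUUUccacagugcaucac

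The 5p arm spans bases 6 to 26 of the hairpin and the 3p arm bases 46 to 67. Folding with RNAfold predicted 27 base pairs and a free energy of -32.2 kcal/mol, with 18 of 21 bases of the 5p arm and 19 of 22 bases of the 3p arm paired. Entries of chromosome 18 were left out of the RefSeq table for the searches of seeds and hairpins. No other mature miRNA of the rest of the table had the seed of either arm. The longest run of bases shared with any of the 1004 other hairpins searched was 9 for the 5p arm and 11 for the 3p arm. Among 141767 GENCODE M21 transcripts, searched on both strands, each whole arm was found in Mir33 alone, and sequence outside these transcripts was not searched. A read of a whole miR-33 arm therefore had no second place among annotated transcripts, which matters because reads that aligned to several places were not counted at genes. Counts were given per hairpin, so the arms cannot be told apart.

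Both hairpins lay on the strand of their host and in introns, but at opposite ends of the host (mm10, GENCODE M21). Mir378a is on chromosome 18 at 61397835 to 61397900, minus strand, in intron 1 of Ppargc1b. It starts 2500 bases downstream of the start of the transcript with the longest coding sequence (13 exons), 2389 bases from the exon before it, and all 3 annotated transcripts with an intron there have it in intron 1. Mir33 is on chromosome 15 at 82198122 to 82198190, plus strand, in intron 16 of Srebf2 (19 exons). It starts 50941 bases downstream of the transcript start and lies in an intron of 1848 bases, 335 bases from the exon before it and 1444 bases from the next. In the 2 other coding transcripts that span it, the same intron is number 17 and number 3. Neither gene is part of a genomic cluster, since the nearest other miRNA gene of the same strand was 249.9 kb from Mir378a and 210.3 kb from Mir33. The map of the host genes shows Mir378a near the start of Ppargc1b and Mir33 near the end of Srebf2.

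**Figure D1:**
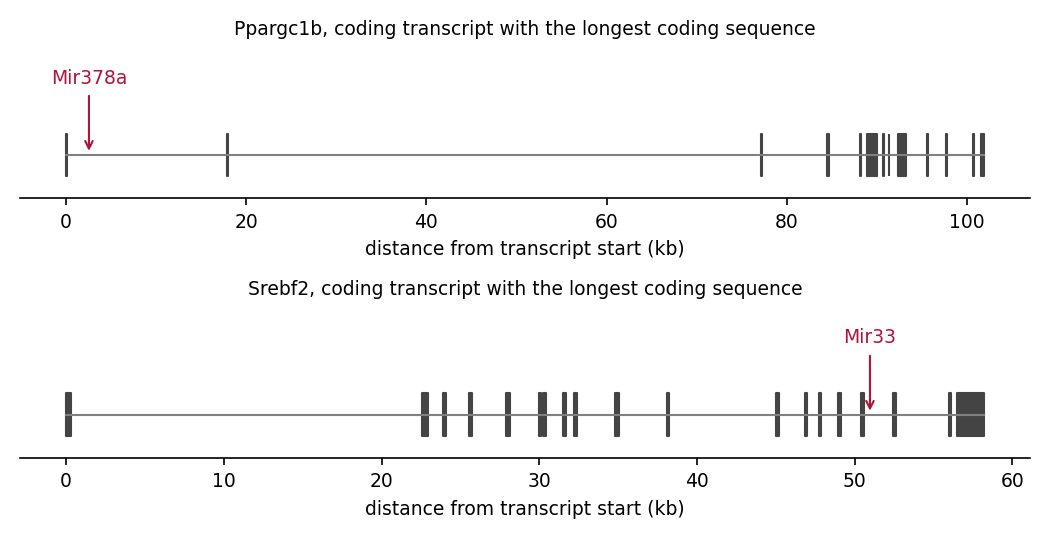
Position of the Mir378a and Mir33 hairpins (arrows) in the coding transcript with the longest coding sequence of Ppargc1b and Srebf2, against the distance from the transcript start in kb. Dark blocks are exons, drawn with a least width so that short ones can be seen, and the line is intron. Mir378a lies in intron 1 of Ppargc1b and Mir33 in intron 16 of Srebf2.

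On the strand of the annotated gene, 5752428 counts fell on miRNA genes in replicate 1 and 3333149 in replicate 2. Levels are given in CPM, counts scaled to a library total of 1e6 such counts, or as a share in percent. Of all aligned reads, 39.4% and 41.2% aligned to several places and were not counted at genes, so ranks are uncertain, since genes encoded at several places could rank higher. The miRNA genes typical of endocrine tissue (Mir375, Mir7-1, Mir7b, Mir132, Mir212 and Mir202) were all detected, which here means at least 2 CPM in each library, and most of their counts came from Mir375, with 68780 and 46236 CPM of a sum of 74146 and 52895. Mir202 had 8.69 and 13.2 CPM and Mir212 had 36.7 and 87.6 CPM. No cell type of the gland can be told apart in bulk tissue, and fewer cells of a type cannot be told from less RNA per cell.

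Mir378a was among the most abundant miRNA genes of the gland and Mir33 was present at a low level. Mir378a had 308974 counts in replicate 1 and 139163 in replicate 2, or 53712 and 41751 CPM. As a share of the miRNA counts this was 5.37% in replicate 1, with a 95% exact Clopper-Pearson interval from 5.35 to 5.39, and 4.18% in replicate 2, with an interval from 4.15 to 4.20. The mean was 4.77% ± 0.846 (SD, n = 2). Mir378a was higher in replicate 1, and the intervals did not overlap. Mir33 had 97 counts in replicate 1 and 83 in replicate 2, or 16.9 CPM (13.7 to 20.6) and 24.9 CPM (19.8 to 30.9), with a mean of 20.9 ± 5.68 CPM (SD, n = 2). It was higher in replicate 2, and its intervals overlapped slightly. A count of 0 would have allowed up to 0.522 and 0.900 CPM, from 3 counts, so Mir33 was well above this limit in both animals. These intervals and limits cover counting error only, and since no molecular identifiers mark the reads, copies made by PCR can make them too narrow.

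In the order of all miRNA genes, Mir378a ranked 5 in replicate 1 and 7 in replicate 2, and Mir33 ranked 270 and 256. In the order of mean CPM, Mir378a stood between Mir375 (68780 and 46236 CPM) and Mirlet7i (44497 and 43551 CPM). Only 3 genes had both values above the higher value of Mir378a, and 4 others had ranges that overlapped its range. Its place among these neighbours is thus not settled by 2 animals. Mir33 stood between Mir103-2 (18.3 and 23.7 CPM) and Mir218-2 (13.7 and 27.9 CPM). Because 35 genes had ranges that overlapped its range, its place among them is not settled by 2 animals either. The range of Mir33 lay below that of 245 genes and above that of 1921.

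**Figure D2:**
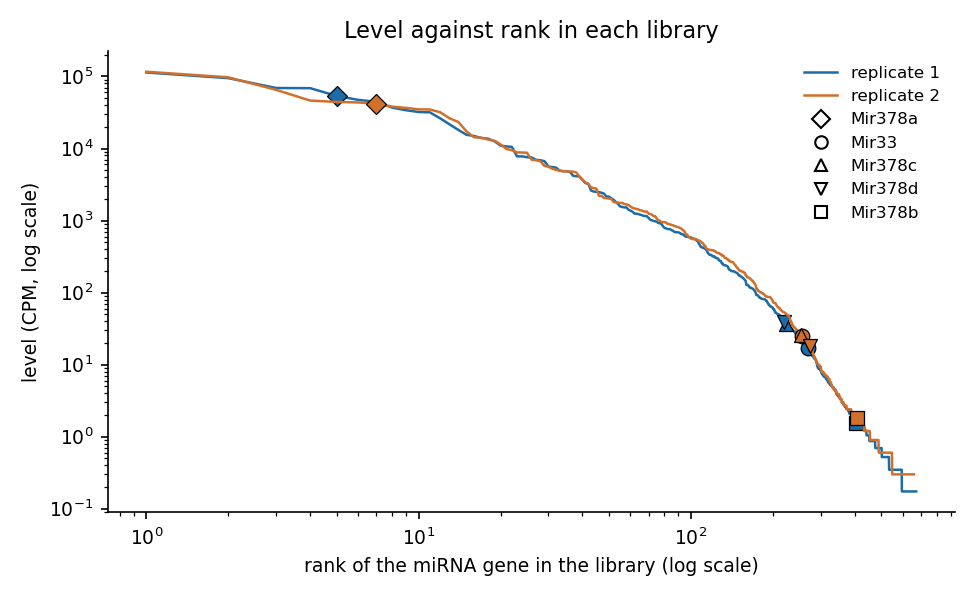
Level of each miRNA gene with a count (CPM, log scale) against its rank in the library (log scale), with replicate 1 in blue and replicate 2 in orange. Markers show Mir378a at ranks 5 and 7, Mir33 at ranks 270 and 256, and the 3 relatives of Mir378a (Mir378b, Mir378c and Mir378d), all in the lower part of both curves.

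Within a library, Mir378a exceeded Mir33 by 3 orders of magnitude. The ratio of their counts was 3185 in replicate 1 (95% exact interval 2611 to 3928) and 1677 in replicate 2 (1352 to 2105). On the log2 scale it was 11.17 ± 0.65 (SD, n = 2). The hairpins are 66 and 69 bases long, and per base of hairpin the ratios were 3330 and 1753. No library scaling enters this ratio, and it was 1.90-fold higher in replicate 1, with counting intervals that did not overlap.

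MiRNA genes inside introns of protein-coding genes of the same strand, outside all exons of their coding transcripts, were used as a reference for these intronic genes. There were 789 of them, of which 148 were detected, and they held 45.4% of the miRNA counts in replicate 1 and 48.4% in replicate 2. Mir378a ranked 3 among them in both libraries, after Mirlet7g in Wdr82 and Mir126a in Egfl7. It held 11.8% of the intronic counts in replicate 1 and 8.63% in replicate 2. Mir33 ranked 103 and 100, and held 0.00372% and 0.00514% of the intronic counts. The median detected intronic gene had 81.6 and 78.2 CPM. Mir378a was 658-fold and 534-fold above this median, and Mir33 was 4.84-fold and 3.14-fold below it.

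Strand decided whether Mir378a was counted. An annotated miRNA gene of the other strand, Gm25301 (chromosome 18, 61397813 to 61397925, plus strand), covers the whole Mir378a hairpin. Without regard to strand, Mir378a had 0 counts in both libraries, while on its own strand it had the 308974 and 139163 counts given above. In that column reads over both genes were set aside as ambiguous, 1006147 reads in replicate 1 and 473222 in replicate 2, and the Mir378a counts equal 30.7% and 29.4% of these numbers. On its own strand Gm25301 had 0 counts in both libraries, which allows up to 0.522 and 0.900 CPM. Its opposite-strand counts, 308974 and 139164, exceed the counts of Mir378a by 0 and 1. Every count over the Mir378a hairpin thus came from the strand of Ppargc1b, with 0 counts on the strand opposite to Mir378a in both libraries. Mir33 has no miRNA gene on the other strand. Its counts were the same with and without regard to strand, 97 and 83, and its opposite strand had 0 counts.

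The relatives of Mir378a in the miR-378 family were far lower. Mir378c on chromosome 14 had 211 and 86 counts (36.7 and 25.8 CPM), Mir378d on chromosome 10 had 224 and 61 (38.9 and 18.3 CPM), and Mir378b on chromosome 11 had 9 and 6 (1.56 and 1.80 CPM). None of these 3 genes lies within a protein-coding gene of its strand. Mir378a thus held 99.86% of the family's counts in replicate 1 and 99.89% in replicate 2. It exceeded Mir378c 1464-fold and 1618-fold, and Mir378d 1379-fold and 2281-fold. Mature sequences of the family are alike, and reads that aligned to several places were not counted, so the levels of all 4 genes are uncertain for this reason. Mir33 was below Mir378c in both libraries, but in replicate 2 the counts were 83 and 86. The counting intervals there overlapped, 19.8 to 30.9 CPM for Mir33 and 20.6 to 31.9 CPM for Mir378c, so their order in replicate 2 is not settled. The order of Mir33 against Mir378d changed between the animals, with counting intervals that overlapped in replicate 2.

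To compare the animals, the reads of each gene were put to an exact binomial test (two-sided), which sets library against library and says nothing of conditions. The test took in all 389 miRNA genes whose mean count was at least 10, scaled library sizes by TMM and adjusted p-values by Benjamini-Hochberg, and a gene was called at an adjusted p of 0.05 or less. It called 59.6% of all genes tested, 30.8% as higher and 28.8% as lower in replicate 1. By total counts the same test called 21.9% as higher and 43.7% as lower. TMM raised every log2 ratio by 0.199 against total counts, and the median over all genes tested was 0.01 with TMM and -0.19 by total counts.

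Mir378a was called higher in replicate 1, with a log2 ratio of 0.56 and a counting interval of 0.55 to 0.57 (1.48-fold). Its adjusted p by the exact binomial test was too small to be represented as a number. By total counts the log2 ratio was 0.36 and the gene was called as well. At this depth nearly every gene was called, 47 of the 48 genes with a mean count of at least 10000 (97.9%). The difference of Mir378a was larger than the median absolute log2 ratio, which was 0.40 over all genes tested and 0.34 at this depth. Of all genes tested, 37.0% differed more than Mir378a. With a common dispersion for both libraries, a biological coefficient of variation of 0.361, edgeR's exact test gave Mir378a an adjusted p of 1. By the exact binomial test the difference was thus beyond counting error, and with the common dispersion it was not called. That dispersion came from the same 2 libraries over all genes tested, Mir378a included. The common dispersion test therefore cannot show whether Mir378a differed beyond the spread between animals.

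Mir33 leaned the other way without being called. Its log2 ratio was -0.37 with a counting interval of -0.80 to 0.08, and its adjusted p by the exact binomial test was 0.145. By total counts the log2 ratio was -0.56, with an adjusted p of 0.0174 by the same exact test, so its call depends on the scaling. Its interval allows a level in replicate 1 from 0.574-fold to 1.06-fold that of replicate 2. Of the 65 genes with 50 to 200 counts in mean, to which Mir33 belongs, 31 (47.7%) were called. Over all genes tested, 53.2% differed more than Mir33. The common dispersion test of edgeR gave an adjusted p of 1 for Mir33 too.

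Mir378c and Mir378d were called higher in replicate 1, as Mir378a was. Their log2 ratios were 0.70 for Mir378c (adjusted p of the exact binomial test 0.000189) and 1.28 for Mir378d (adjusted p of the same exact test 1.19e-10). Both were also called by total counts, with 0.50 and 1.08, and neither was called by edgeR's common dispersion test (adjusted p of 1). Mir378b had too few counts to be tested. All 3 tested genes of the family were thus called in the direction in which 30.8% of all genes tested were called.

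**Figure D3:**
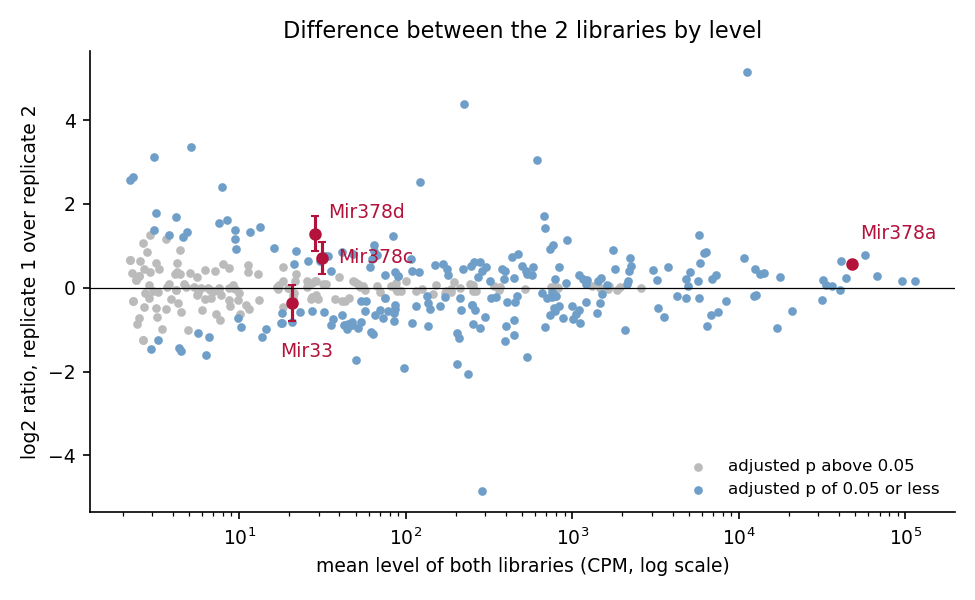
Log2 ratio of replicate 1 over replicate 2 after TMM scaling against the mean level of both libraries (CPM, log scale) for the 389 miRNA genes tested, each a point, in blue where the exact binomial test called the gene. Red points with 95% counting intervals are Mir378a (0.56), Mir378c (0.70), Mir378d (1.28) and Mir33 (-0.37), and the interval of Mir33 includes 0 while that of Mir378a is smaller than its point.

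The genes nearest to each member in log2 ratio over the 2 libraries were sought among those with a mean count of at least 100 and a mean CPM within 4-fold. For Mir378a, with 19 candidates, they were Mirlet7d (0.64), Mirlet7e (0.46) and Mir10b (0.36). For Mir33, with 67 candidates, they were Mir669o (-0.32), Mir148b (-0.32) and Mir181a-1 (-0.31). With 2 libraries, this says only that the ratios were close.

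Mir33 was a minor member of a list of 20 miRNA genes reported to act on cholesterol transport, uptake or synthesis. By mean CPM it ranked 16 of 20. Mir27b, whose product acts on lipid genes, led with 2487 and 4632 CPM. Mir93, of the Mcm7 intron cluster, had 1821 and 2057 CPM, Mir34a, a target of p53, had 1161 and 1152 CPM, and Mir27a, which has the same seed as Mir27b, had 759 and 1344 CPM. All 4 were above Mir33 in both libraries without overlap. Of the 17 genes tested, 5 were called higher and 9 lower in replicate 1, and 3, Mir33 among them, were not called, beside 30.8% higher and 28.8% lower over all genes tested. The median log2 ratio was -0.24 beside 0.01 over all. By total counts 4 were higher and 12 lower, beside 21.9% and 43.7% over all, with a median of -0.44 beside -0.19. The list holds the red blood cell gene Mir144, called higher (log2 ratio 3.05), and the liver gene Mir122, called lower (-0.75), and their part in its counts was not tested.

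The genes of Mir107 and Mir103 lie in introns of pantothenate kinase genes and are thus further miRNAs of metabolic hosts. How well the counting separated strands that are alike was not tested. Their mature strands are shown beside those of the Mir27 genes because they show how far such strands differ (RefSeq, GRCm38.p6, 5′ to 3′, seed in capitals).
miR-27b-3p: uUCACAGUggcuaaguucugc
miR-27a-3p: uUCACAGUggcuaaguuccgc
miR-107-3p: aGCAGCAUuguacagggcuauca
miR-103-3p: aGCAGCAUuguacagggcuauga

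The 27b and 27a strands differ at 1 base, U19C, counted from the 5′ end of the 27b strand, and each occurs in 1 hairpin of the table. Here too, hairpins of chromosome 18 were left out of the search. The 107 and 103 strands also differ at 1 base, C22G, but the 103 strand is encoded whole in 2 hairpins, those of Mir103-1 and Mir103-2. Mir107, in Pank1, had 1945 and 1644 CPM, while Mir103-2, in Pank2, had 18.3 and 23.7 CPM and Mir103-1, in Pank3, had 3.30 and 4.50 CPM. Mir103-2 stood next to Mir33 in the order of mean CPM, but its reads of the shared strand have more than 1 place to align, whereas whole miR-33 arms had only 1 among annotated transcripts. The counts of Mir33 and Mir103-2 were close, but they are not comparable as levels for this reason. Of the 3 Pank genes, Mir107 alone was called, as higher in replicate 1 (log2 ratio 0.44), beside 30.8% higher and 28.8% lower over all genes tested. In the ranges of mean count that hold Mir107, Mir103-2 and Mir103-1, 81.2%, 47.7% and 24.3% of the genes tested were called in either direction.

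Mir378a dominated the list of 18 miRNA genes tied to mitochondria, brown fat and energy use. Its 53712 and 41751 CPM compare with list sums of 61955 and 52600 CPM. The next members were Mir27b, Mir455 (1542 and 1676 CPM), Mir34a and Mir27a, all far below it in both libraries. Of the 15 genes tested, 10 were called higher and 3 lower in replicate 1, beside 30.8% and 28.8% over all genes tested. The median log2 ratio was 0.21 beside 0.01 over all. By total counts 6 were higher and 4 lower, beside 21.9% and 43.7%, with a median of 0.01 beside -0.19. Of the 10 higher calls, 6 were markers of other tissues, and their part in the list's counts was not tested. These were the muscle genes Mir499 (log2 ratio 4.38) and Mir208b (2.51) and the 4 brown fat genes. Of the 4 muscle genes tested, Mir206 alone was called lower (-2.05), and it is not in this list. Mir27a, Mir27b and Mir34a stand in both lists, so the lists are not independent.

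**Figure D4:**
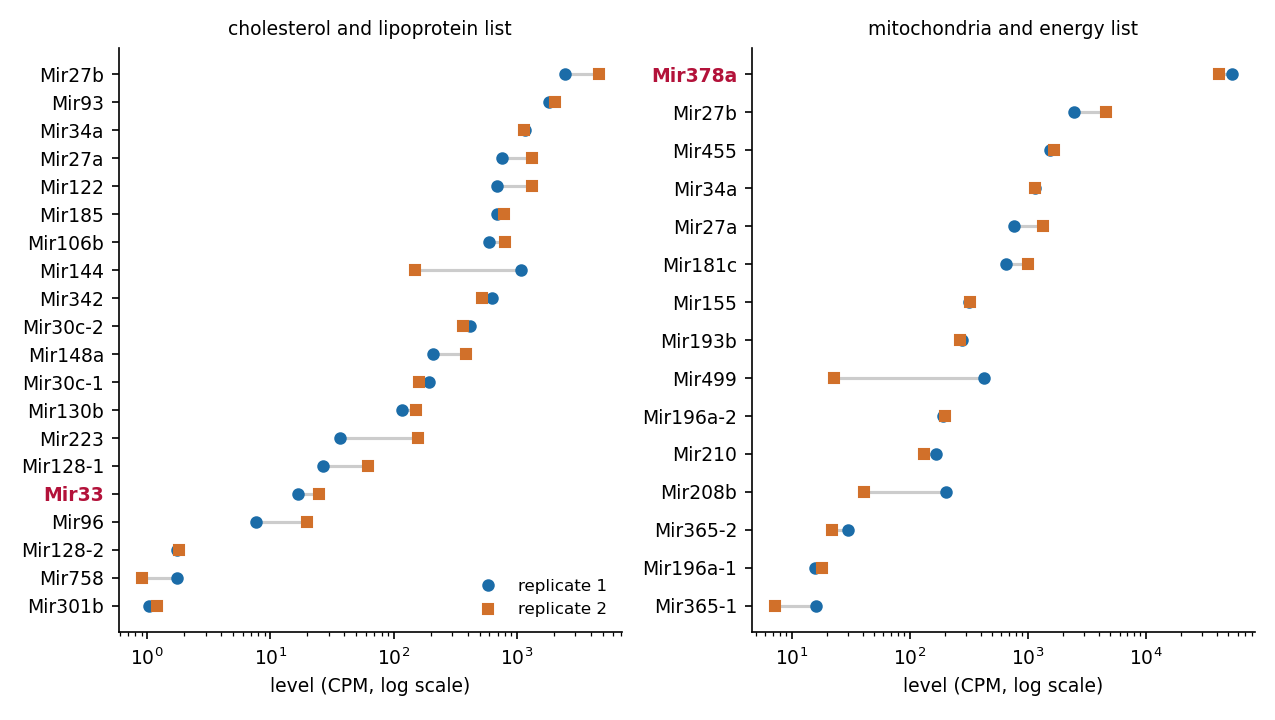
Level (CPM, log scale) in replicate 1 (blue circles) and replicate 2 (orange squares) of the genes of the cholesterol and lipoprotein list and of the mitochondria and energy list with a count in both libraries, ordered by mean CPM, with a grey line joining both values. Mir33 stands 16 of 20 in its list, and Mir378a leads its list with 53712 and 41751 CPM.

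Markers of other tissues differed between the animals as well, and their part in the levels of Mir378a and Mir33 was not tested. Over all genes tested, 30.8% were called higher and 28.8% lower in replicate 1, or 21.9% and 43.7% by total counts. The median log2 ratio over all was 0.01 with TMM and -0.19 by total counts. The 3 red blood cell genes (Mir451a, Mir144 and Mir486) summed to 22813 and 900.9 CPM, and all 3 were called higher in replicate 1. The 9 striated muscle genes summed to 719 and 454 CPM, with 3 called higher and 1 lower in replicate 1. The lower one was Mir206, the highest of them by mean CPM, with 81.7 and 389 CPM (log2 ratio -2.05). Mir1a-1 and Mir133a-2 had 0 counts in both libraries. Mir1a-2 had 7 and 1 counts, and Mir133a-1 and Mir133b each had 1 and 0. Copied genes such as these leave out reads that aligned to several places. The 4 brown fat genes, led by Mir455, were all detected and summed to 1867 and 1970 CPM, of which Mir455 held most. All 4 were called higher in replicate 1, with a median log2 ratio of 0.46, led by Mir365-1 (1.33) and Mir365-2 (0.65), while total counts gave 2 higher calls and 1 lower call. The liver gene Mir122 had 690 and 1331 CPM and was called lower in replicate 1. The 5 kidney genes, of which 4 were detected, summed to 97.3 and 141 CPM, and 2 of the 4 tested were called lower and 0 higher. Total counts gave the same numbers of calls for liver and kidney. Each of these sums was below the level of Mir378a in the same library.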

How the data were processed

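The authors sequenced small RNA of under 30 nt from total RNA of adrenal gland, per the labels. The deposited values are raw counts for each miRNA gene (mm10, GENCODE M21, per the file descriptions), with no normalization, in 3 columns: without regard to strand, on the gene's strand and on the opposite strand. Which aligner and trimming were used is not given in the sources used here. The 4 leading lines of each table name no gene; they held 66.2% and 69.0% of the reads and stayed out of library sizes and tests.

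The gene-strand column was used. CPM scale the counts of a library to a sum of 1e6 over all miRNA genes. Log2 ratios add 0.5 counts to each library. A quasi-likelihood test was not possible with 1 group, so reads were compared by exact binomial tests. The labels call the libraries biological replicates. The tests were also tested on simulated data. The members and lists were chosen with earlier results of these data known, and with them the rule for named genes: the members, their family, genes overlapping them on the other strand, neighbours in the order of mean CPM, the 3 genes nearest in log2 ratio, and up to 4 leading genes of each list. Scaling and dispersion came from edgeR 4.0.16 and DESeq2 1.42.0 (R 4.3.3), tests from SciPy 1.17.1 (Python 3.11.15, pandas 2.3.3, NumPy 2.4.6), and folding from RNAfold 2.7.2; matplotlib 3.10.9 drew the figures.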

Additional observations from a re-analysis of the deposited data

How the results depend on the processing

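The level of Mir378a, 4.77% of the counts at miRNA genes, was 1.56% of all reads, 2.29% of aligned reads, 2.60% when reads aligned to several places were added to the total (an alternative chosen after seeing the data), 11.0% without the 10 other genes of highest CPM, and 0 in the unstranded column, as was its share of the miR-378 family. The level of Mir33, 20.9 CPM, was 6.71 per 1e6 of all reads, 9.82 per 1e6 aligned reads, 11.2 with reads aligned to several places added, and 47.6 without the 10 genes. Apart from the value of 0, which comes from reads set aside as ambiguous, the denominators alone set these values. Leaving out each library gave 4.18% to 5.37% for Mir378a, 16.9 to 24.9 CPM for Mir33 and 10.71 to 11.64 for the log2 ratio of Mir378a over Mir33.

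Between the animals, Mir378a kept a positive log2 ratio of 0.36 to 0.57 and Mir33 a negative one of -0.56 to -0.36 under each of 6 alternatives. With edgeR's common dispersion Mir378a stayed at 0.56 but was not called, and by total counts Mir33 was called at -0.56. The common dispersion test called 4 genes in place of 232, 3 higher and 1 lower in replicate 1 in place of 120 and 112, and by total counts 170 were lower. Mir378a had no unstranded counts to test, and Mir33 did not reach 100 counts in mean, so the test with that filter gave it no value. Depth limits Mir33: with 97 and 83 counts its ratio had a counting SE of 0.22 on the log2 scale. No paired analysis was possible because the series has 1 group.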
